A study of Mus musculus with 6 samples.

Results

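Ion channel genes of the voltage-gated and potassium families were followed in the embryonic mouse forebrain. They were chosen by symbol alone: the pore and accessory subunits of voltage-gated potassium (Kcn), sodium (Scn) and calcium (Cacn) channels, the other potassium channels, and the Hcn pacemaker channels, with Kcne2 and Cacna2d2 left out. The rule took 131 of the 37991 gene identifiers in the count files, with 128 distinct symbols, because Kcnb2, Kcnh8 and Scn8a each have a second identifier. RNA came from the dorsal telencephalon, the part of the forebrain that forms the cerebral cortex, of CD1 mouse embryos at E13.5, cut from fixed coronal sections in front of the hippocampus. In the FGF2 group, 3 embryos (numbered 6, 7 and 8) had received 100 ng of fibroblast growth factor 2 into the ventricles, and in the vehicle group 3 embryos (7, 8 and 9) had received PBS with 0.1% BSA. All 6 were of the same strain and age and gave 1 library each. The series is about folds that FGF2 brings about in the mouse cortex, and the comparison asks which genes the injected factor goes with.

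Voltage-gated channels open when the membrane depolarises: sodium channels carry the upstroke of the action potential, calcium channels let in the calcium that drives transmitter release and gene expression, and potassium channels end the spike. Inward rectifier and two-pore-domain potassium channels set the resting potential, and Hcn channels carry a current that opens on hyperpolarisation. In the embryonic cortex, radial glia and young neurons already carry some of these channels before synapses and mature firing appear, and accessory subunits decide how much of a pore reaches the membrane.

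Library totals ran from 61489462 to 81532334 counted alignments. In vehicle 9 all counts above 0 were even numbers, where the other 5 libraries had 51.0% to 51.9% even. Doubled counts would look like this, and the depth of vehicle 9 may then be lower than printed. The counts were used as deposited, and halving them for vehicle 9 left 6 channel genes called higher and 1 lower. Vehicle 8 and vehicle 9 were female by their Xist reads (58349 and 57904) and by 22 reads of Y-linked genes each, while the other 4 embryos were male, so the FGF2 group held males only. FGF2 8 stood apart in the channel genes themselves, which took 0.232% of its reads, against 0.155% and 0.173% in FGF2 7 and FGF2 6 and 0.176% to 0.183% in the vehicle embryos. In whole tissue, fewer cells of a type and less RNA per cell cannot be told apart.

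Of the channel genes, 6 rose in the FGF2 embryos and 1 fell. Those that rose were Kcnh2, the pore of the ERG potassium channel, Cacna1g, a T-type calcium channel pore that opens near rest, Cacna2d3 and Cacna2d4, accessory alpha2delta subunits of calcium channels, and Scn9a and Scn10a, sodium channel pores best known from sensory neurons. The gene that fell was Kcnj10, an inward rectifier that takes up potassium in glia. These calls rest on edgeR's quasi-likelihood test with Benjamini-Hochberg adjustment over 21983 genes at an adjusted p of 0.05. In the same test 2.68% of all genes were called higher and 0.951% lower, against 5.26% and 0.877% of the 114 channel genes that had enough reads to be tested. DESeq2 called 11 channel genes higher and 3 lower, beside 5.93% and 3.08% of all genes. With 3 embryos against 3, the smallest two-sided p of an exact permutation test is 0.1, and the calls therefore rest on the model across genes. The embryos are separate animals.

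**Figure D1:**
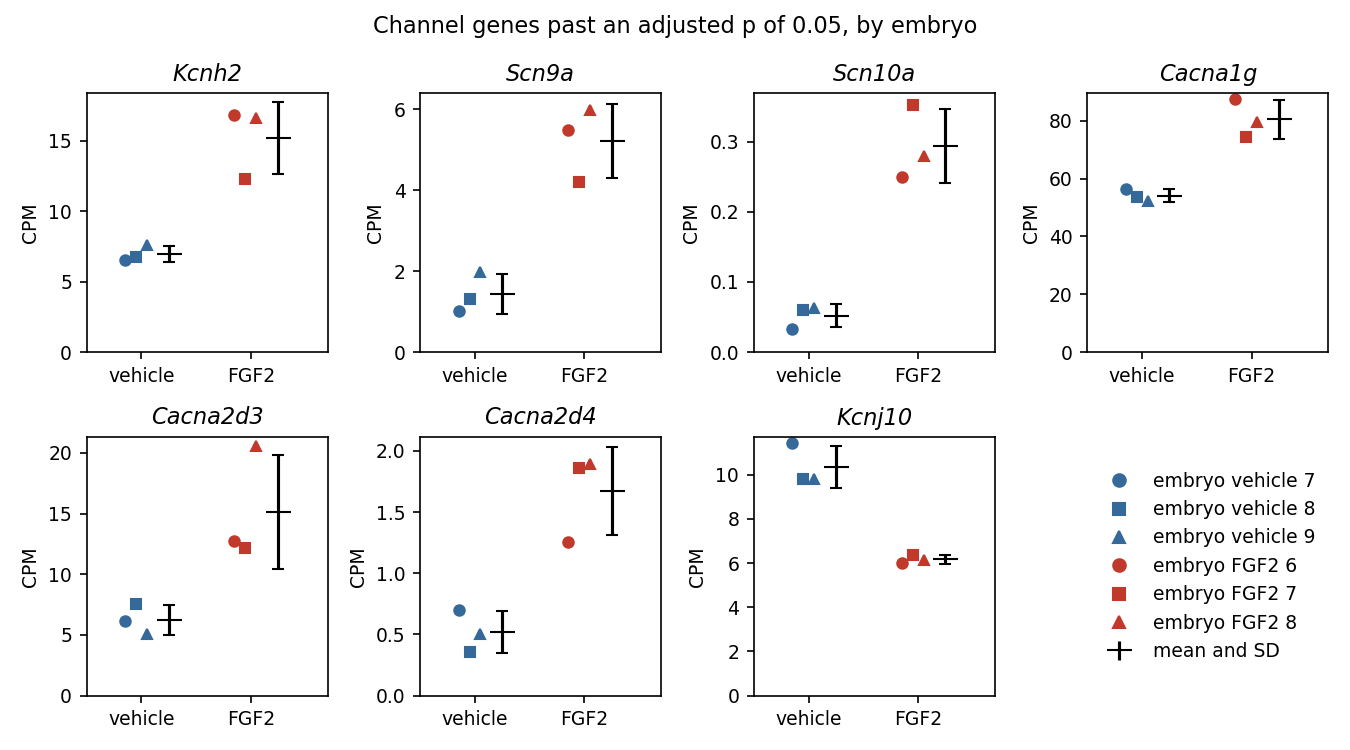
Level (CPM, reads scaled to library size, linear axes from 0) of the 7 channel genes past the test, with 1 point for each of the 6 embryos and the mean and SD of each group (n = 3) beside them. In each gene the FGF2 and vehicle embryos occupy separate ranges, with the FGF2 embryos above in 6 genes and below in Kcnj10.

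Start windows from RefSeq are shown for 4 of the called genes to give the letters of their promoters. No start site was measured here, and the counts cover the whole gene span, so the windows are not tied to the reads that changed. They come from the RefSeq promoter table on GRCm38.p6, a later build than the NCBIM37 coordinates of the count files, and run from 250 bases before to 50 bases after the start, written 5′ to 3′ on the strand of the gene. Capitals mark GGGCGG, the GC box, or CAGNTG, an E-box, or the reverse complement of either. The windows are chr5:24329542-24329841 on the minus strand for Kcnh2, chr2:66634913-66635212 on the minus strand for Scn9a, chr14:29721815-29722114 on the minus strand for Cacna2d3 and chr1:172340960-172341259 on the plus strand for Kcnj10. By the RefSeq gene table the Kcnh2 window is an internal start, 22.1 kb inside the 5′ end of the gene, while the starts of the other windows lie within 1 kb of theirs.
Kcnh2: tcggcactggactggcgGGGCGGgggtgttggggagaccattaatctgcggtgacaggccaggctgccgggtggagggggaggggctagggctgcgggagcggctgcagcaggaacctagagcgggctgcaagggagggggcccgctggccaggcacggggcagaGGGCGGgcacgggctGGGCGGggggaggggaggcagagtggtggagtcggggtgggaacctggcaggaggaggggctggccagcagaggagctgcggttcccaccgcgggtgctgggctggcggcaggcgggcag
Scn9a: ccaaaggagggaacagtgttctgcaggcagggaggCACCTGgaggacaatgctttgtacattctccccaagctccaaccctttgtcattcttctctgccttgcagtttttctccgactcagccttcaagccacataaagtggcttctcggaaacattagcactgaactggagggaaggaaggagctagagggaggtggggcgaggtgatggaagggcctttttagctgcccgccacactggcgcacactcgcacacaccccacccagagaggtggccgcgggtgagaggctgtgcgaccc
Cacna2d3: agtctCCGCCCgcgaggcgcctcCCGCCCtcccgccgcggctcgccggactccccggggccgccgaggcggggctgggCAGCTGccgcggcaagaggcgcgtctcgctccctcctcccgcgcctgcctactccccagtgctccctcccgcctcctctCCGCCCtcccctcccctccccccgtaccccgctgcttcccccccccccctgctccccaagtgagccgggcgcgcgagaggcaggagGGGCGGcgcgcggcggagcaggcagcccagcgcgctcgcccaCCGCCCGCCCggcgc
Kcnj10: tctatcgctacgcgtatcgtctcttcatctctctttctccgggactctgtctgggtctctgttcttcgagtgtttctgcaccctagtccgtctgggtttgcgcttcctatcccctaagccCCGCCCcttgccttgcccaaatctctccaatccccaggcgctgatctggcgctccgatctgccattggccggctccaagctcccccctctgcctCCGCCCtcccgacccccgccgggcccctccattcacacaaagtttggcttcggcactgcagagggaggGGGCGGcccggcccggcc

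The Cacna2d3 window held 6 matches to the GC box and 41 CpG dinucleotides at 81.3% G and C, the Kcnh2 window 3 matches at 74.3% and the Kcnj10 window 3 matches at 63.7%. The Scn9a window, at 57.3% G and C, held no GC box and 1 E-box match. The window of Scn10a, also called but not shown, was at 51.7% G and C and held no match to either. Over 116 channel gene promoters, which covered 91 of the 128 symbols, GGGCGG on either strand was in 47.4%, against 35.7% of all 32851 promoters of this length. CAGNTG on either strand was in 56.0% against 51.4%. TAATTA, the core letters of many homeodomain sites, was in 0 of the 116 and in 5.29% of all promoters, and TATAAA was in 4.31% against 13.6%. The median G and C content was 59.7% in channel promoters and 52.7% in all. These are matches of letters in a short window and carry no test.

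Levels between genes were compared as RPKM, named so by the authors and by definition scaled to length and library size, since the counts are not scaled for length. The gene model behind the RPKM values is not stated. RPKM values were joined to 125 channel genes, of which 44 had a mean of at least 1 over the 6 embryos and 81 were under 1. The highest levels belonged to accessory subunits and not to pores. Cacng4 led at a mean of 57.5 RPKM, followed by Cacng7 at 54.1, both of the gamma family whose brain members also escort AMPA-type glutamate receptors. Cacnb3 was at 41.2 and Cacnb1 at 10.2, beta subunits that bring calcium channel pores to the membrane, and no other channel gene reached 10. Cacng7 and Cacnb1 fall outside the rule for named genes and were picked once their values had been seen.

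Among pores, the T-type calcium channels Cacna1g and Cacna1h led at 6.36 and 5.70 RPKM. The two-pore-domain channel Kcnk2 stood at 5.67, the small-conductance calcium-activated channels Kcnn1 and Kcnn2 at 5.37 and 4.66, and Hcn3 at 4.23. Of the sodium channel subunits with an RPKM, the beta subunit Scn3b was highest at 3.94. Scn8a, with 2 identifiers, was not joined to an RPKM. Cacng4 was at 48.8, 49.9 and 67.3 RPKM in FGF2 6, 7 and 8 and at 55.9, 61.3 and 62.0 in vehicle 7, 8 and 9. Cacng7 was at 52.3, 53.6 and 53.7 against 54.7, 54.2 and 56.3, so the order of Cacng4 and Cacng7 did not hold beyond the spread between embryos.

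**Figure D2:**
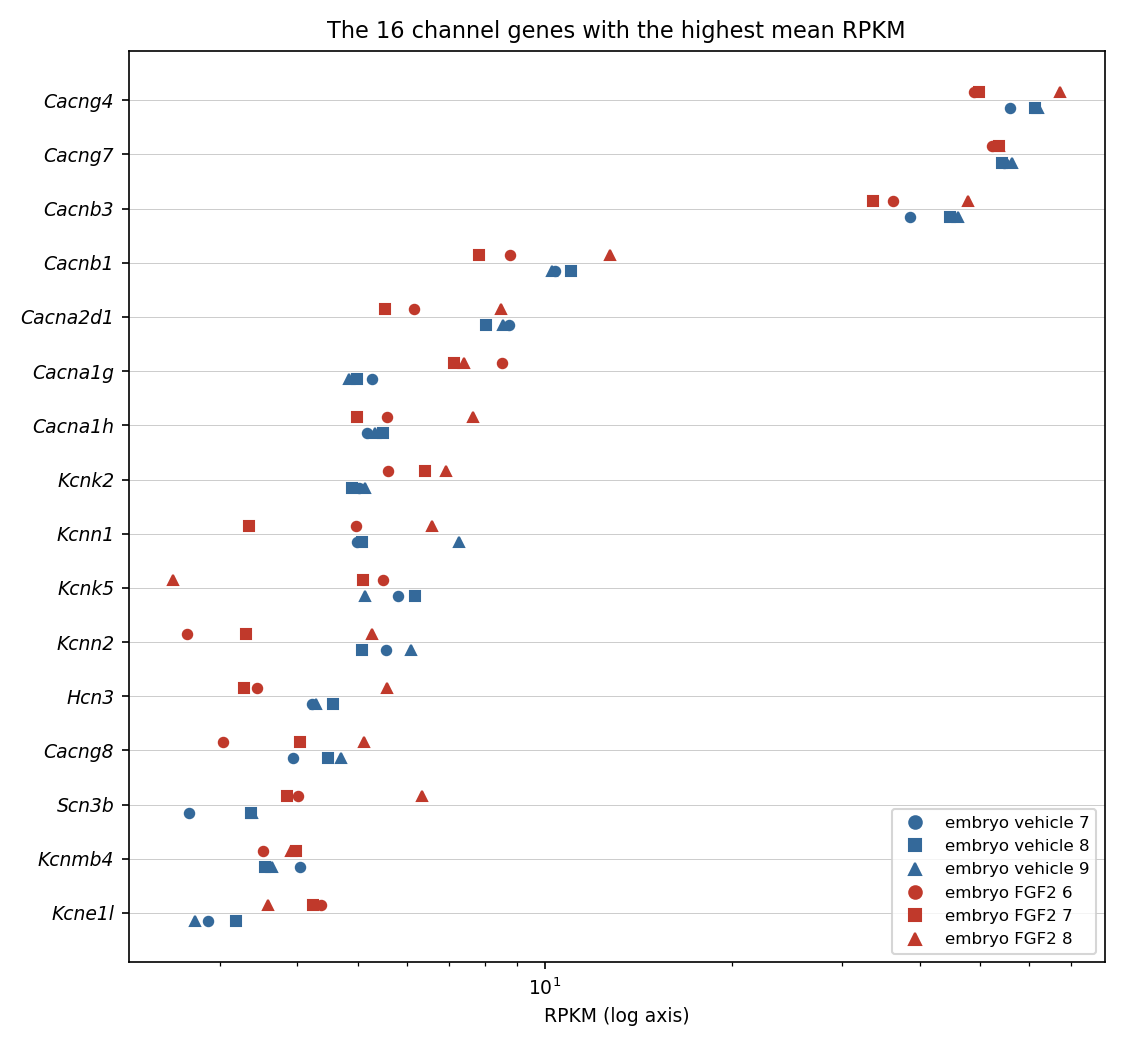
Levels (RPKM) of the 16 channel genes with the highest mean, in each of the 6 embryos, on a log axis, ordered by their mean. The gamma and beta subunits Cacng4, Cacng7, Cacnb3 and Cacnb1 stand above every pore, with Cacng4 at a mean of 57.5 RPKM and Cacna1g, the highest pore, at 6.36.

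Called genes were found in 5 of the 15 families into which the genes were sorted: the EAG, ERG and ELK potassium channels (1 of 9 tested, higher), the calcium channel alpha1 pores (1 of 10, higher), the alpha2delta subunits (2 of 3, higher), the sodium channel alpha pores (2 of 9, higher) and the inward rectifiers (1 of 13, lower), beside 3.63% of all genes called in either direction. Differences between families were not tested, and 1 of the alpha2delta calls, Cacna2d4, is not separable from a gene inside its span. The median log2 fold change of FGF2 over vehicle was 0.26 over the 114 tested channel genes and 0.01 over all genes tested. Family medians ran from -0.19 in the 4 calcium channel beta genes to 1.27 in the 3 alpha2delta genes. An unadjusted p under 0.05 was found in 32 channel genes (28.1%), against 19.3% of all genes. The 3 FGF2 embryos lay above all vehicle embryos in 25 channel genes (21.9%, against 14.6% of all genes) and below them in 9 (7.89%, against 13.6%).

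**Figure D3:**
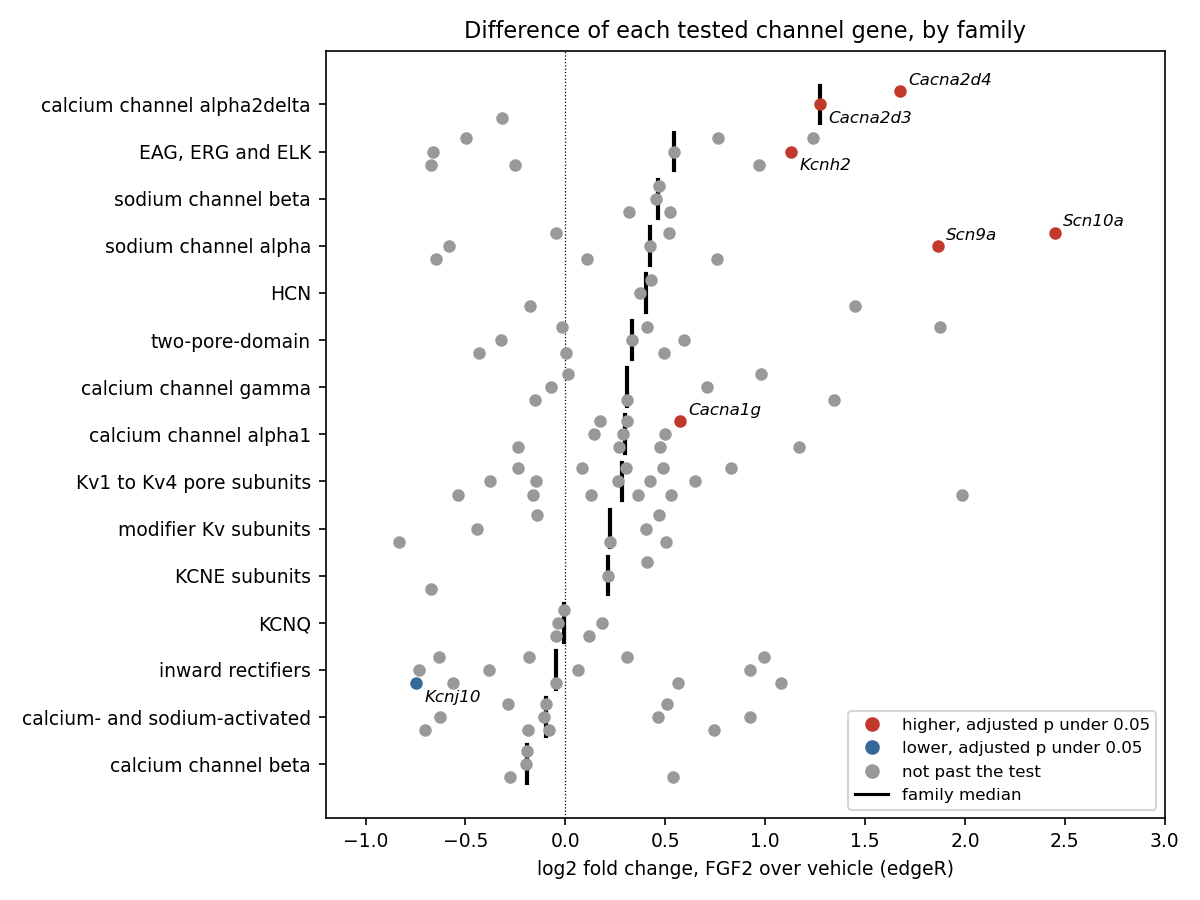
Log2 fold change of FGF2 over vehicle for every tested channel gene, by family, with the family median as a bar and called genes named. The alpha2delta genes have the highest median (1.27), and the 4 sodium channel beta subunits all lie above 0.

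The EAG, ERG and ELK family holds potassium channels that shape repolarisation and firing threshold. Kcnh2, on chromosome 5 (23825407 to 23857422, NCBIM37), was at 16.8, 12.3 and 16.6 CPM in FGF2 6, 7 and 8 and at 6.53, 6.78 and 7.59 in vehicle 7, 8 and 9. Every FGF2 embryo was above every vehicle embryo, and FGF2 7 was the lowest of its group. The log2 fold change was 1.13 ± 0.16 (SE, edgeR adjusted p = 0.0102), and on the RPKM scale the group means were 3.10 ± 0.53 against 1.40 ± 0.14 RPKM (SD, n = 3). Without vehicle 7 or vehicle 8 the call was lost, at an adjusted p of up to 0.0718 in edgeR's test. Kcnh4, an ELK channel, was at 12.1, 7.73 and 19.3 CPM against 4.12, 4.67 and 7.78, with FGF2 7 just under vehicle 9, and did not pass (log2 fold change 1.24, edgeR adjusted p = 0.121). Kcnh7, another ERG pore, stood at 40.8 and 36.6 CPM in FGF2 6 and 7 but at 87.1 in FGF2 8, beside 88.5, 77.9 and 65.7 in the vehicle embryos (log2 fold change -0.50, edgeR adjusted p = 0.452).

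The Kv1 to Kv4 pores, Kcna, Kcnb, Kcnc and Kcnd, form delayed rectifiers, fast-spiking channels and the A-type current, and 0 of 16 tested members passed edgeR's test, with 3 at an unadjusted p under 0.05 and 1 called by DESeq2. Kcna5, a delayed rectifier known from muscle, was at 0.939, 4.54 and 1.48 CPM against 0.425, 0.658 and 0.667. The groups did not overlap, but the level in FGF2 7 was far above the rest, and the log2 fold change of 1.98 did not pass (edgeR adjusted p = 0.121). Kcnd2, an A-type pore, was at 29.9, 23.97 and 35.5 CPM against 22.9, 25.6 and 18.2 and did not pass (log2 fold change 0.42, edgeR adjusted p = 0.24).

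Of the KCNQ channels, which carry the M-current that restrains repeated firing, 0 of 5 passed, with 0 at an unadjusted p under 0.05 in edgeR's test and 0 called by DESeq2. In CPM, FGF2 8 was the highest of the 6 embryos in all 5. In RPKM this did not hold for Kcnq1, which was highest in vehicle 8 (0.463, against 0.370 in FGF2 8). The CPM of Kcnq5 was largely that of the pseudogene Gm7658 inside its span (87.4%). Kcnq3, a neuronal member, was at 0.173, 0.237 and 0.694 RPKM against 0.528, 0.488 and 0.576, so FGF2 6 and 7 lay below the vehicle range and FGF2 8 above it. Among the modifier subunits Kcnf, Kcng, Kcns and Kcnv, which give no current alone, 0 of 7 tested passed (0 at an unadjusted p under 0.05 and 0 by DESeq2). Kcng1, the best expressed of them, stood at 4.42, 7.99 and 16.5 CPM against 17.7, 16.8 and 17.0. Of the Kcne subunits, 0 of 3 tested passed edgeR's test (2 at an unadjusted p under 0.05, and Kcne4 lower by DESeq2). Kcne4 was at 2.76, 2.73 and 2.18 CPM against 3.17, 4.82 and 4.22 (log2 fold change -0.67, edgeR adjusted p = 0.15).

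Calcium- and sodium-activated potassium channels couple ion entry to repolarisation, and 0 of 11 tested passed, with 3 at an unadjusted p under 0.05 in edgeR's test and 0 called by DESeq2. Kcnn2, a small-conductance pore, was at 17.9, 20.9 and 38.0 CPM against 40.4, 37.8 and 40.2. FGF2 6 and 7 were close to each other and far under the vehicle embryos, while FGF2 8 lay among them, and the log2 fold change of -0.63 did not pass (edgeR adjusted p = 0.241). Kcnn3, its relative, was at 1.57, 1.76 and 2.72 CPM against 3.30, 3.07 and 3.46. Here all 3 FGF2 embryos were below the vehicle embryos, with a log2 fold change of -0.70 (edgeR adjusted p = 0.178). Kcnma1, the large-conductance BK pore, was at 5.21, 4.31 and 10.7 CPM against 3.21, 4.58 and 4.25, and Kcnt2, a sodium-activated pore, at 7.35, 5.65 and 8.63 against 7.61, 7.81 and 7.68.

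The inward rectifiers include the only channel gene called lower. Kcnj10, on chromosome 1 (174271341 to 174304216), was at 5.99, 6.39 and 6.13 CPM after FGF2 and at 11.4, 9.81 and 9.81 in the vehicle embryos. FGF2 8 lay between FGF2 6 and 7, unlike in many other channel genes, and the groups were far apart. The gene fell by 0.75 on the log2 scale (SE 0.13, edgeR adjusted p = 0.0245), and its RPKM was 1.02 ± 0.10 against 1.85 ± 0.14 (SD, n = 3). The call was lost when FGF2 6, FGF2 7 or a single vehicle embryo was left out (adjusted p at most 0.125 in edgeR's test), and the log2 fold change then ran from -0.79 to -0.67. Radial glia markers summed to 2185 to 2645 CPM in the FGF2 embryos and 2352 to 2567 in the vehicle embryos, with 1 of 7 (Pax6) called lower and 0 of 7 at 0, and their part in the level of Kcnj10 was not tested.

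Among G-protein-gated rectifiers, which transmitters open through their receptors, Kcnj3 was at 4.53, 6.56 and 9.62 CPM against 11.4, 10.8 and 12.1. All FGF2 embryos were below the vehicle embryos, the log2 fold change of -0.73 did not pass edgeR's test (adjusted p = 0.169), and DESeq2 called it lower. Kcnj5 was at 1.99, 2.23 and 2.52 CPM against 1.32, 1.48 and 1.75, in separate ranges with the FGF2 embryos above (log2 fold change 0.56, edgeR adjusted p = 0.214). The pores of ATP-sensitive channels differed from each other in direction. Kcnj11 was at 2.72, 4.05 and 8.07 CPM against 7.98, 7.73 and 7.24, and Kcnj8, known from pericytes, at 3.54, 4.20 and 6.48 against 1.68, 3.77 and 2.03. Neither passed (log2 fold changes -0.63 and 0.92, edgeR adjusted p = 0.385 and 0.214). Pericyte markers summed to 94.8 to 127 CPM in the FGF2 embryos and 78.1 to 93.1 in the vehicle embryos, with 0 of 5 called and 0 of 5 at 0, and their part in the Kcnj8 values was not tested.

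Kcnj13, a rectifier of the choroid plexus and retinal pigment epithelium, read differently in RPKM and in span counts. It was at 0.365, 0.278 and 1.49 RPKM after FGF2 and at 0.0284, 0.0513 and 0.0793 in the vehicle embryos. FGF2 8 was the highest and the groups were far apart. Over the gene span the values were 0.773, 0.522 and 2.25 CPM against 0.474, 0.494 and 0.698, with a log2 fold change of 1.08 (edgeR adjusted p = 0.332). The Kcnj13 span lies inside Gigyf2, a gene at 71.7 CPM, and only the reads that fall within the Kcnj13 span count for both. With limma on log2(RPKM + 1) and no filter on low values the adjusted p of Kcnj13 was 0.286. Choroid plexus markers summed to 162, 235 and 477 CPM in FGF2 6, 7 and 8 and to 1.94 to 4.14 in the vehicle embryos, with 6 of 7 called higher and 0 of 7 at 0 in every library, and their part in the Kcnj13 values was not tested.

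Two-pore-domain channels are the leak channels that hold cells at rest, and 0 of 9 tested passed edgeR's test, with 2 at an unadjusted p under 0.05 and 1 called by DESeq2. Kcnk13, a channel known from microglia, came close. It was at 1.20, 0.606 and 0.855 CPM in the FGF2 embryos and 0.327, 0.239 and 0.159 in the vehicle embryos, with every FGF2 embryo above, a log2 fold change of 1.87 ± 0.41 (SE) and an edgeR adjusted p of 0.0508. Without FGF2 8 the adjusted p was 0.0444, and over the other embryos left out singly it ran up to 0.198. Microglia markers summed to 69.6 to 79.6 CPM in the FGF2 embryos and 48.5 to 58.8 in the vehicle embryos, with 0 of 4 called and 0 of 4 at 0, and their part in the Kcnk13 values was not tested. Kcnk2, a channel gated by stretch and lipids and the best expressed of the family, was at 5.59, 6.42 and 6.94 RPKM against 5.03, 4.90 and 5.14. Its groups did not overlap, but the difference in CPM did not pass (log2 fold change 0.33, edgeR adjusted p = 0.208).

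Of the Hcn channels, 0 of 4 passed, with 1 at an unadjusted p under 0.05 in edgeR's test and 0 called by DESeq2, and FGF2 8 was the highest embryo in all 4. Hcn3, the best expressed, was at 3.45, 3.28 and 5.57 RPKM against 4.22, 4.57 and 4.29. FGF2 6 and 7 lay below the vehicle range and FGF2 8 above it. Hcn4, the pacemaker of the heart, was at 4.73, 4.47 and 6.42 CPM against 4.47, 3.70 and 3.43. The FGF2 embryos of Hcn4 lay just above the vehicle embryos, and its log2 fold change was 0.43 (edgeR adjusted p = 0.305).

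Scn9a and Scn10a rose from low levels, and Scn11a, another sodium channel pore of sensory neurons and the neighbour of Scn10a on chromosome 9, did not pass (log2 fold change -0.58, edgeR adjusted p = 0.215). Scn11a was named once its values had been seen. Scn9a, on chromosome 2 (66318137 to 66473009), was at 5.48, 4.20 and 5.97 CPM in the FGF2 embryos and 1.01, 1.32 and 1.97 in the vehicle embryos, or 0.409, 0.328 and 0.413 against 0.0942, 0.104 and 0.153 RPKM. The lowest FGF2 embryo stood above the highest vehicle embryo on either scale. The log2 fold change of Scn9a was 1.86 ± 0.28 (SE, edgeR adjusted p = 0.0151), and the call ended when vehicle 7 or vehicle 8 was left out (adjusted p at most 0.0907). Its span overlaps Gm13629, an unnamed gene model whose reads came to 83.5% of the Scn9a value and whose log2 fold change was 1.74, so the 2 calls are not separate. Scn10a, on chromosome 9 (119517584 to 119603478), had 21, 25 and 18 reads against 2, 4 and 4, or 0.250, 0.352 and 0.280 against 0.0327, 0.0598 and 0.0635 CPM. It rose by 2.45 ± 0.49 (SE, edgeR adjusted p = 0.0384) from this low base, and was no longer called when FGF2 6, FGF2 7 or a single vehicle embryo was left out (adjusted p at most 0.163). In RPKM Scn10a was at most 0.0175 in the FGF2 embryos and was listed at 0 in all vehicle embryos.

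Of the markers of sensory and peripheral neurons 0 of 5 tested were called, with a median log2 fold change of 0.80, and the list summed to 5.74 to 9.34 CPM in the FGF2 embryos and 4.15 to 6.09 in the vehicle embryos. Of its genes, Tlx3 and Pou4f1 are given here as picked once their values had been seen. Tlx3 was at no more than 0.222 CPM in any embryo. Pou4f1 was at 2.71, 0.888 and 4.21 CPM against 0.376, 0.793 and 0.730, in separate ranges (log2 fold change 2.03, edgeR adjusted p = 0.103). The part of such neurons in the values of Scn9a and Scn10a was not tested. Markers of the ventral telencephalon and its GABA neurons summed to 653 to 911 CPM in the FGF2 embryos and 67.0 to 176 in the vehicle embryos. Of their 15 identifiers 11 were called higher and 0 were at 0 in every library. The 15 stand for 13 symbols, since Ebf1 (both called) and Gsx2 (neither called) have 2 identifiers each. The 2 of Gsx2 had nearly the same CPM, and both are in the sums. Those of thalamus and hypothalamus had 4 of 8 called higher, with sums of 584 to 699 against 501 to 606 CPM and 0 at 0 in every library. The part of either tissue in the channel genes that rose was not tested.

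The sodium channel pores of the embryonic brain were higher in the FGF2 means without passing the test. Scn3a, the main form before birth, was at 40.4, 28.9 and 62.0 CPM against 27.6, 27.1 and 23.0, with every FGF2 embryo above the vehicle embryos (log2 fold change 0.76, edgeR adjusted p = 0.158). DESeq2 called it higher. Scn2a1 was at 7.67, 7.96 and 13.2 CPM against 7.20, 6.76 and 7.52 (log2 fold change 0.42, edgeR adjusted p = 0.347), and Scn1a at 6.15, 4.47 and 9.19 against 5.27, 3.65 and 4.89 (0.52, adjusted p = 0.36). Scn8a, the pore of mature axons, was at 49.3, 35.3 and 69.0 CPM against 50.8, 48.6 and 43.0 for its larger identifier, with both groups interleaved.

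Sodium channel beta subunits, which tether pores and adhere to other cells, had 0 of 4 past edgeR's test, with 2 at an unadjusted p under 0.05 and 0 called by DESeq2, although all 4 log2 fold changes were positive with a median of 0.46. Scn3b was at 4.003, 3.85 and 6.35 RPKM against 2.67, 3.37 and 3.38, and its FGF2 embryos were above the vehicle embryos (log2 fold change 0.52 in CPM, edgeR adjusted p = 0.25). Scn2b was at 1.32, 1.35 and 1.37 RPKM against 0.779, 1.02 and 1.05, also in separate ranges (0.45, adjusted p = 0.214). Its span lies inside Gm10684, so its reads are shared in CPM.

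Calcium channel pores had 1 call of 10. Cacna1g, on chromosome 11 (94269705 to 94335414), was at 87.6, 74.4 and 79.5 CPM in the FGF2 embryos and 56.5, 53.6 and 52.2 in the vehicle embryos, or 8.53, 7.15 and 7.40 against 5.26, 4.99 and 4.83 RPKM. All FGF2 values lay above all vehicle values, and the spread within each group was small beside the gap. The log2 fold change was 0.57 ± 0.08 (SE, edgeR adjusted p = 0.0125), and leaving out any 1 vehicle embryo took the adjusted p to as much as 0.0854. The other T-type pores did not pass. Cacna1h, at a like level, was at 5.56, 4.98 and 7.67 RPKM against 5.17, 5.50 and 5.33 (log2 fold change 0.15, edgeR adjusted p = 0.673). Cacna1i was at 2.32, 1.65 and 3.23 CPM against 1.06, 1.30 and 0.825, in separate ranges, with a log2 fold change of 1.17 (edgeR adjusted p = 0.0931) and a call by DESeq2.

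The high-voltage-activated calcium pores Cacna1a to Cacna1e had log2 fold changes of 0.29, 0.47, 0.27, 0.17 and 0.50 in alphabetical order, and none passed (edgeR adjusted p from 0.224 to 0.778). In Cacna1e FGF2 8 stood above all other embryos, at 7.80, 5.98 and 22.2 CPM against 9.40, 9.83 and 6.22. The counts of Cacna1c and Cacna1d cannot be read alone, since their spans run into Dcp1b and Dcp1a, whose own CPM came to 107% and 396% of theirs. In RPKM Cacna1c was at 1.88, 1.61 and 2.22 against 1.61, 1.30 and 1.55, and Cacna1d at 0.656, 0.583 and 1.33 against 0.673, 0.546 and 0.676.

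The alpha2delta subunits are extracellular partners that raise the number of calcium channels at the membrane and at synapses. Cacna2d3, on chromosome 14 (29718133 to 30535050), was at 12.8, 12.1 and 20.5 CPM against 6.12, 7.57 and 5.11, or 1.30, 1.38 and 2.40 against 0.680, 0.742 and 0.711 RPKM. Every FGF2 embryo was above every vehicle embryo and FGF2 8 was the highest. The log2 fold change was 1.27 ± 0.24 (SE, edgeR adjusted p = 0.0337), 0.99 without FGF2 8 (adjusted p = 0.0131), and it was not called when a single vehicle embryo was left out (adjusted p at most 0.133). Cacna2d4, on chromosome 6 (119186544 to 119302425), was at 1.26, 1.86 and 1.90 CPM against 0.703, 0.359 and 0.508, with a log2 fold change of 1.67 ± 0.33 (SE, edgeR adjusted p = 0.0368). Its call ended when FGF2 7 or a single vehicle embryo was left out (adjusted p at most 0.15). Lrtm2 lies inside its span and had 82.2% of its CPM, with a log2 fold change of 1.55, and the level of Cacna2d4 was no more than 0.0669 RPKM in any embryo. The call of Cacna2d4 therefore cannot be told apart from that of Lrtm2. Cacna2d1, by far the best expressed of the 3, was at 6.16, 5.53 and 8.49 RPKM against 8.74, 8.04 and 8.55 and did not pass (log2 fold change -0.32 in CPM, edgeR adjusted p = 0.439).

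Of the beta subunits 0 of 4 passed (1 at an unadjusted p under 0.05 in edgeR's test and 0 by DESeq2), and of the gamma subunits 0 of 7 tested (0 and 0). Cacnb3 was at 36.3, 33.6 and 47.8 RPKM against 38.5, 44.8 and 46.2, with FGF2 6 and 7 below the vehicle embryos and FGF2 8 above them. Cacnb4 was at 0.766, 1.04 and 1.604 RPKM against 0.672, 0.504 and 0.839, in overlapping ranges. Cacng2, the AMPA receptor partner stargazin, was at 1.12, 1.34 and 3.45 RPKM against 1.12, 1.34 and 1.14, so FGF2 8 alone was high. Cacng5 was at 1.51, 1.64 and 1.87 CPM against 0.213, 1.05 and 1.27. Its groups did not overlap, but vehicle 7 was far below the other vehicle embryos and the log2 fold change of 0.98 did not pass (edgeR adjusted p = 0.366).

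Too few reads for the test were found in 17 of the 131 genes. Scn7a, a sodium-sensing relative of the sodium channels, had 17, 9 and 6 reads after FGF2 and 0 in each vehicle embryo. Against a floor of 3 reads over the vehicle group it was at least 9.57-fold higher. Kcne1, the subunit that slows the KCNQ channel of heart and inner ear, had 8, 12 and 2 reads after FGF2 and 0, 2 and 0 after vehicle. FGF2 8 was thus close to vehicle 8, at 0.0311 and 0.0299 CPM. The pooled reads, 22 against 2, gave a ratio of 9.87 with a 95% exact binomial interval of 2.43 to 86.6. Kcng3 had 48 against 16 reads, a ratio of 2.69 (1.502 to 5.08), and Kcnk16 had 0 reads in all libraries. These intervals and floors use reads pooled over the embryos of a group, so they cover counting error only and leave out the spread between embryos. Reads that carry no molecular identifier may come from 1 molecule, which makes the intervals too narrow even for counting error. They are also too narrow where mates counted separately or the counts of vehicle 9 were doubled. Scn7a, Kcng3 and Kcnk16 were chosen after their values were seen.

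Channel genes are long, and the counts cover whole spans with introns. The median span was 35.6 kb in channel genes, 14.9 kb in all genes tested and 85.9 kb in the 7 called genes. Another gene's span overlapped 34 of the 131 channel genes and 4 of the 7 called ones (Kcnh2, Scn9a, Cacna2d3 and Cacna2d4), although each gene overlapping Kcnh2 or Cacna2d3 had under 1% of their CPM. The length that CPM divided by RPKM gives was 5.12 kb at the median over 95 channel genes of at least 0.1 RPKM, and exceeded 20 kb in 9. It was 289 kb in Kcnq5, where the pseudogene Gm7658 (chromosome 1, 21502014 to 21503137) carried 87.4% of the CPM. At 100.3 CPM, Kcnq5 was at 0.347 RPKM.

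**Figure D4:**
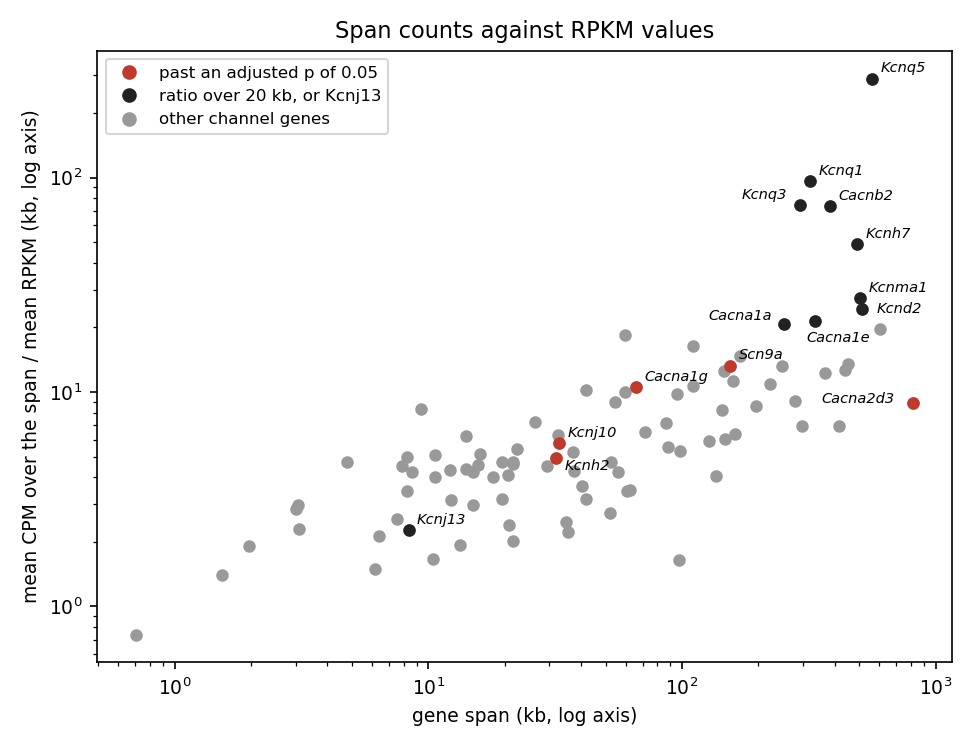
Mean CPM divided by mean RPKM (kb, log axis) against the gene's span (kb, log axis), for the 95 channel genes of at least 0.1 RPKM. Called genes are red, and the 9 genes over 20 kb and Kcnj13 are black. Kcnq5 stands highest at 289 kb, while the called genes shown lie in the main band. The called genes Cacna2d4, with a ratio of 44.2 kb, and Scn10a were under 0.1 RPKM and are not shown.

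Among the 114 tested channel genes, FGF2 8 was in CPM the highest of the 6 embryos in 68 (59.6%, against 28% of all genes) and the lowest in 7 (6.14%, against 28%). FGF2 6 and FGF2 7 were each the highest in 9 channel genes (7.89%, against 13.7% and 15.8% of all genes). Without FGF2 8 the median log2 fold change of the channel genes was 0.05, beside 0.01 for all genes, and 7 channel genes were called higher and 16 lower of 115 tested (6.09% and 13.9%). In that fit 4.31% of all genes were called higher and 4.38% lower. The 7 that rose were the 6 above and Kcnk13. Among the 16 were Kcng1, Kcnj11, Kcnh5, Kcnj3, Kcnn2, Kcnh7, Kcnn3, Kcnj10, Cacna2d1, Hcn3, Kcnd3, Cacnb1, Cacnb3 and Cacng4. Kcnh5 and Cacnb1 were named here after their values were seen.

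The falls without FGF2 8 were largest in Kcng1, by 1.47 on the log2 scale (edgeR adjusted p = 0.0192), Kcnj11, by 1.18 (adjusted p = 0.0121), and Kcnh5, by 1.10 (adjusted p = 0.0418). Kcnj3 fell by 1.05 and Kcnn2 by 1.03 (edgeR adjusted p = 0.0113 and 0.000876), and the fall of Kcnh7 had an adjusted p of 0.00698. In all 16, FGF2 6 and FGF2 7 lay below every vehicle embryo, which picking the genes by the fit without FGF2 8 all but fixes. In 11 FGF2 8 lay above at least 1 vehicle embryo, and the same picking favours this. The matching shares among all genes called lower in that fit were not counted. The sign of the log2 fold change turned in 13 tested channel genes when FGF2 8 was left out. With voom and sample quality weights, which give less weight to libraries that deviate, 7 channel genes were called higher and 10 lower, beside 5.79% and 4.49% of all genes.

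**Figure D5:**
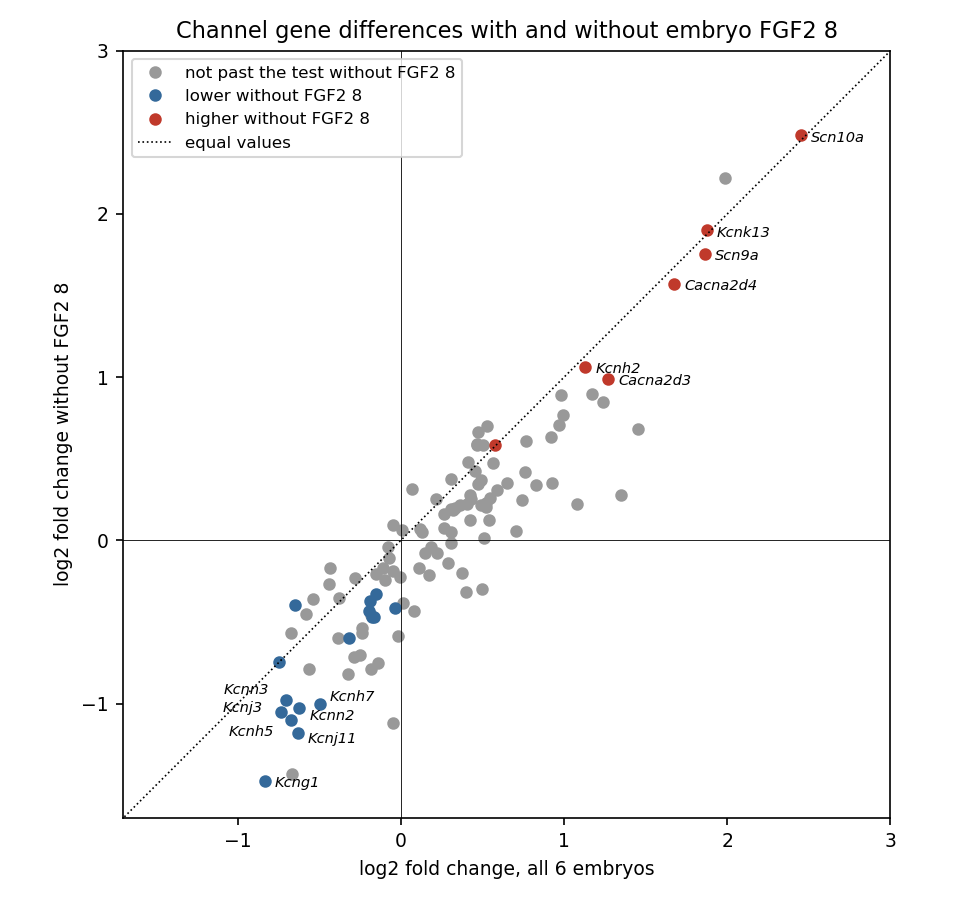
Log2 fold change of each tested channel gene without FGF2 8 (vertical) against that over all 6 embryos (horizontal), with the line of equal values. Most points lie below the line, and the 16 genes called lower without FGF2 8 include Kcng1 at -1.47, while the genes called higher stay near the line.

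Cell type markers differed in FGF2 8 as well. Neuron markers summed to 1773, 1833 and 2954 CPM in FGF2 6, 7 and 8 and to 2001 to 2019 in the vehicle embryos, with 0 of 8 called and 0 at 0. Cortical projection neuron markers summed to 637, 722 and 1262 CPM against 1407 to 1492, with 0 of 7 called and 0 at 0. Intermediate progenitor markers summed to 499 to 622 CPM against 905 to 978, with 4 of 5 called lower and 0 at 0. The part of these cells in the channel values of FGF2 8, or in the 16 genes lower without it, was not tested.

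With embryo sex as a covariate, which rests the vehicle males on vehicle 7, 0 channel genes were called by edgeR's test (17 at an unadjusted p under 0.05, 14.9%, against 8.58% of all genes), beside 0.0182% higher and 0.00455% lower of all genes. The log2 fold changes of the 7 called genes kept their direction: 1.22 in Kcnh2, 0.51 in Cacna1g, 1.31 in Cacna2d3, 1.25 in Cacna2d4, 2.36 in Scn9a, 3.10 in Scn10a and -0.89 in Kcnj10, at adjusted p-values from 0.133 to 0.517. In the 4 male embryos alone 0 of 120 channel genes were called by edgeR's test (15 at an unadjusted p under 0.05, 12.5%, against 7.04% of all genes), beside 0.0345% higher and 0% lower of all genes. In vehicle 8 and vehicle 9 the vehicle and the female sex cannot be told apart.

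A separate list of 40 symbols held proteins that bind or place these channels. It also took in the leak channel Nalcn with Unc79 and Unc80, and the repressor Rest with its corepressors. Of 37 tested, 3 rose, 1 fell and 33 did not pass, beside 2.68% and 0.951% of all genes called higher and lower, with a median log2 fold change of 0.14. Nalcn, the sodium leak channel, was at 13.0, 11.5 and 13.2 CPM against 4.97, 6.24 and 5.05, in clearly separate ranges. It rose by 1.21 ± 0.14 (SE, edgeR adjusted p = 0.00542), and leaving out any 1 embryo kept the call (adjusted p up to 0.0392). Unc80, the scaffold of that channel, rose by 1.24 ± 0.21 (edgeR adjusted p = 0.0247), while Unc79, its other partner, which was chosen after its values were seen, had a log2 fold change of 0.34 (adjusted p = 0.535). Rem2, a small GTPase that limits calcium channels, rose by 0.91 ± 0.14 (adjusted p = 0.0151 with edgeR). Rcor2, a corepressor of the complex that holds neuronal genes silent, fell by 0.49 on the log2 scale (edgeR adjusted p = 0.0176), while Rest, its DNA-binding partner, picked once its values had been seen, was at 44.5, 46.7 and 26.3 CPM against 41.3, 44.7 and 43.5. The calls of Unc80, Rem2 and Rcor2 were each lost when a single vehicle embryo was left out, that of Unc80 also without FGF2 6 and that of Rcor2 without FGF2 7, at adjusted p-values of at most 0.118, 0.0885 and 0.0975. With embryo sex as a covariate the calls of Nalcn, Unc80, Rem2 and Rcor2 were lost. Their log2 fold changes kept their direction, at 1.34, 1.25, 0.83 and -0.52. The calmodulin genes Calm2 and Calm3, which encode a calcium sensor of many channels, were the most abundant partners described, with log2 fold changes of -0.06 and -0.01.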

How the data were processed

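One RNA-seq library from each of 6 embryos was analysed, with 61489462 to 81532334 counted alignments. Per the labels' protocols, RNA was taken from fixed sections and sequenced as paired-end reads. The submitters' processing notes name the build NCBIM37 (mm9), bedtools 2.12.0, TopHat2 2.0.9 with Bowtie2 2.1.0.0, and CASAVA 1.8. Whether counting used strand: not given in the sources used here.

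Counts deposited by the authors are whole numbers of alignments over each gene's span, introns included, in the layout of bedtools coverage. Reads in overlapping spans count for each gene. The deposited RPKM values, named so by the authors, are per symbol, with no tool stated, and were joined to symbols that occur once.

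Counts were tested in R 4.3.3 with edgeR 4.0.16 (filterByExpr, TMM scaling, robust glmQLFit, glmQLFTest) over all 6 libraries, with Benjamini-Hochberg adjustment over the genes kept. CPM was scaled by TMM. Fold changes (log2) set FGF2 over vehicle, and standard errors were derived from the F statistic. Alternatives used limma 3.58.1 (voom, and log2 of RPKM plus 1 or 0.1) and DESeq2 1.42.0. The channel genes, families, channel partners and marker lists were chosen with earlier results of these data known. Named genes were the called ones, in each family the best expressed and the 2 uncalled with the smallest p, those with at least 1 CPM, separate groups and an absolute log2 fold change over 1, and a set chosen by hand. The scripts were tested on simulated counts.

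Of the remaining marker lists, 0 members were called among endothelium (6 tested), red blood cells (6) and skeletal muscle (5), and 2 of 6 meningeal genes (Col1a1 and Col1a2) were lower. Deviations of same-numbered embryos did not correlate (r = -0.0383 for number 7 and -0.03 for number 8), so numbers were not taken to pair embryos. Some members are counted but not reported here by name.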

Additional observations from a re-analysis of the deposited data

How the results depend on the processing

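Of 129 values of the 7 called channel genes under 20 alternatives (19 planned, 1 chosen after seeing the data), 79 kept their call, 50 lost it and 0 changed direction. Leaving out 1 embryo gave 0 to 7 channel genes higher and 0 to 16 lower, and 181 to 964 of all genes higher and 37 to 979 lower. The lowest counts came without a vehicle embryo (0 channel genes higher without vehicle 7 or vehicle 8, 2 without vehicle 9, and 0 lower without any of the 3), and the highest without FGF2 8. In male embryos alone, the added alternative, 0 channel genes were higher and 0 lower, beside 8 and 0 of all genes. With sex as a covariate the counts were 0 and 0, beside 4 and 1. DESeq2 called 11 channel genes higher and 3 lower, and 1359 and 706 of all genes. The 5 it added as higher were Scn3a, Cacna1i, Kcnh4, Kcnk13 and Kcna5. Voom with sample quality weights called 10 channel genes lower, and 1273 of all genes higher and 986 lower. On genes overlapping no other span 2 channel genes were higher (Cacna1g and Scn10a), beside 344 of all genes. With limma on log2(RPKM + 1) 2 channel genes were higher, beside 318 higher and 114 lower of all genes, on log2(RPKM + 0.1) 2, beside 324 and 107, and without a filter 1 higher and 0 lower, beside 229 and 42. The cause of these differences was not tested. With the embryo number as a replicate block, 5 channel genes were higher and 1 lower, beside 557 and 146 of all genes. Kcnh4 was among those called with the block, and Cacna1g, Scn10a and Kcnj10 were not. Numbers 7 and 8 alone are shared between the groups. RLE size factors, library totals, halved counts of vehicle 9, no low-count filter and a minimum of 1 CPM in 3 libraries kept both channel counts within 1.5 times. Few reads limit Scn10a and the 17 untested genes.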
